A study of Mus musculus with 4 samples.

Results

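The genes described here are 8 that are best known from skin and other epithelia, measured in bone-forming cells: the keratin genes Krt14, Krt23, Krt8, Krt18 and Krt19, the cadherin gene Cdh3, the corneodesmosin gene Cdsn and the galectin gene Lgals7. They are 8 of 18194 genes with a probe set of their own on the array, and all probe sets annotated to these symbols were taken, 13 in all, with 1 more that is annotated to Krt17 and Krt14 together. The 8 were picked with their values in these data known, so their levels and differences are a description and no test was run on them. The cells were MC3T3-E1, a preosteoblast line, derived as 1 clone from the skull cap of newborn C57BL/6 mice, which lays down mineralised matrix when supplied with ascorbate and a phosphate donor. Total RNA was hybridised to Affymetrix 3′ expression arrays, 1 array for each of 4 groups. The groups were osteogenic medium for 3 days, normal medium for 3 days, osteogenic medium for 6 days and normal medium for 6 days. Both media were MEM α with 10% fetal bovine serum, and the osteogenic medium also held ascorbic acid 2-phosphate at 150 µM and beta-glycerophosphate at 10 mM.

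Keratins are intermediate filament proteins of epithelial cells. A type I and a type II keratin pair to build each filament: Krt14 with the type II Krt5 in the basal layer of the epidermis, and Krt18 or Krt19 with the type II Krt8 in simple, single-layered epithelia. The filaments of skin are anchored at desmosomes, and cadherins hold neighbouring cells together at these and at adherens junctions. Mesenchymal cells such as osteoblasts build their intermediate filaments mainly from vimentin and adhere mainly through N-cadherin and cadherin-11.

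Each value below is a signal, the deposited intensity of a probe set after a small shift that gave all arrays the same 75th percentile. A signal under 57.8, the middle of all signals on the 4 arrays, was treated as below a floor, since no detection calls came with the table used here, and values under it have no order. Where 1 side of a comparison was below the floor, the fold is given as "at least", computed from the floor. "Higher" and "lower" in a count mean by 2-fold or more between 2 single arrays. Because values under the floor were set to it, a gene whose brighter array lay under 115.7, 2 times the floor, could not pass 2-fold. Such genes still count as measured, and list medians include them and the bounds. Each group had 1 array, so no difference has an error from biological spread. The probe error of a log2 difference, estimated from genes with more than 1 probe set in a signal range that holds 4 of the 8 genes at day 3 and 3 at day 6, was 0.40 (SD, 712 genes) at day 3 and 0.42 (SD, 679 genes) at day 6, and covers disagreement between probe sets only. The osteogenic day 6 array stood apart in a control signal for the 5′ end of 18S ribosomal RNA, with 746 against 5202 to 9162 on the other arrays. Its part in the day 6 values was not tested. Differences at day 3 are between the 2 day 3 arrays, but the floor, the scaling and the choice of probe set drew on all 4 arrays.

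The 8 genes showed 4 patterns. Krt14, Krt23, Cdh3 and Lgals7 were higher in osteogenic medium at both days. Cdsn was higher there at day 6 alone, Krt8 was near or below the floor with no difference that could be measured at day 6, and Krt18 and Krt19 were below the floor on all 4 arrays. Of the 8 genes, 6 were measured at day 3, meaning above the floor on at least 1 of the 2 arrays, and 4 of them passed 2-fold upwards in osteogenic medium and 0 downwards. Among all 11862 genes measured at day 3, 1.99% were higher and 1.58% lower. At day 6, 5 of the 8 genes were measured, and all 5 were higher. Among all 11902 genes measured at day 6, 4.18% were higher and 2.78% lower. The 4 genes higher at both days compare with 0.826% of the 11260 genes measured at both days. Measured genes whose brighter array lay under 2 times the floor, Krt8 among them at day 3, could not pass 2-fold. Of genes whose brighter array lay between 2 and 8 times the floor, more were higher, 5.54% at day 3 and 8.4% at day 6. These shares stand beside the counts as background and were not used as a test, because the 8 genes were chosen on the same differences.

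Promoters of the genes that were higher at both days are shown as a description. The genes were picked with that difference known, and shared control of them was not tested. RefSeq's table of mouse promoters (build GRCm38.p6) held 6 of the 8 genes in 7 windows, including Lgals7, Krt23 and Krt14. The 250 bases before the annotated start of each are given 5′ to 3′ on the strand of the gene, at chr7:28864136-28864385 (plus strand) for Lgals7, chr11:99493121-99493370 (minus strand) for Krt23 and chr11:100206031-100206280 (minus strand) for Krt14. Capitals mark a match to the GC box searched for.
Lgals7: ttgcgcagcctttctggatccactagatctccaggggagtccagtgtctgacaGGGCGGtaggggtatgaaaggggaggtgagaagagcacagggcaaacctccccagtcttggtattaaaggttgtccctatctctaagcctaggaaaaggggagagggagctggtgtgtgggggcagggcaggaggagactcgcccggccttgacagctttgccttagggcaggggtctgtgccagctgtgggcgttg
Krt23: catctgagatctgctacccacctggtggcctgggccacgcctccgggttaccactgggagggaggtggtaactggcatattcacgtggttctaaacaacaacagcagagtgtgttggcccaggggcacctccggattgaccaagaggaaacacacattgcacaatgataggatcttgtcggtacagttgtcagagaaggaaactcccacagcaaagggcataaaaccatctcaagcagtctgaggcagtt
Krt14: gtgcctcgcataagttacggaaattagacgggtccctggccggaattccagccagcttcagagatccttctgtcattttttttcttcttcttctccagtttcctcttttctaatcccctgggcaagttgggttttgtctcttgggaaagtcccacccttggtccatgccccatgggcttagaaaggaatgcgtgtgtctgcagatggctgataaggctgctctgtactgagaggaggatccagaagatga

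Short motifs were searched on both strands of the whole 300-base windows, which also hold the 50 bases after the start. The AP-1 motif TGANTCA matched 0 of the 7 windows of these genes and 7.81% of all 32851 windows, and the RUNX core TGTGGT matched 0 of 7 and 16.8%. The GC box GGGCGG matched the Lgals7 window alone, 197 bases before the start, and 35.7% of all windows. The TATA box TATAAA matched the Krt8 window alone, across its annotated start, and 13.6% of all windows. A match is a stretch of letters, and a window without one says only that these letters are not in it.

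Krt14 encodes the type I keratin of basal keratinocytes. Its signal was 299.9 in osteogenic and 110.2 in normal medium at day 3, and 281.9 in osteogenic and 65.4 in normal medium at day 6. Both osteogenic arrays were thus above both normal arrays, and all 4 were above the floor. The log2 difference was 1.45 at day 3, 2.72-fold, and 2.11 at day 6, 4.31-fold. This probe set is of the type that the manufacturer marks as able to bind other transcripts, so it was set beside the others of the gene. A second probe set had 194 in osteogenic and 33.5 in normal medium at day 3, and 169 in osteogenic and 54.4 in normal medium at day 6. It gave the same order of media, with log2 differences of at least 1.75 and at least 1.55. A further one was below the floor on all arrays, between 4.0 and 33.3.

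Krt23 encodes a type I keratin found in several glandular and simple epithelia. Its only probe set had a signal of 245 in osteogenic and 19.0 in normal medium at day 3, and 229 in osteogenic and 64.8 in normal medium at day 6. The osteogenic arrays were alike, and the normal arrays lay below and just above the floor. Krt23 was at least 4.24-fold higher in osteogenic medium at day 3 and 3.54-fold higher at day 6.

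Of the keratins of simple epithelia, Krt8, Krt18 and Krt19 were near or below the floor. Krt8, the type II member, had a signal of 85.3 in osteogenic and 86.1 in normal medium at day 3, a log2 difference of -0.014. At day 6 it was below the floor on both arrays, with 49.3 in osteogenic and 11 in normal medium, so no difference is given, and its other 2 probe sets were below the floor on all arrays. Krt18, its type I partner, had signals of 33.7, 6.25, 12 and 9.76 on the osteogenic and normal arrays of day 3 and then those of day 6, all below the floor. Krt19, another type I keratin of simple epithelia, was between 3.25 and 13.1 on the 4 arrays.

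**Figure D1:**
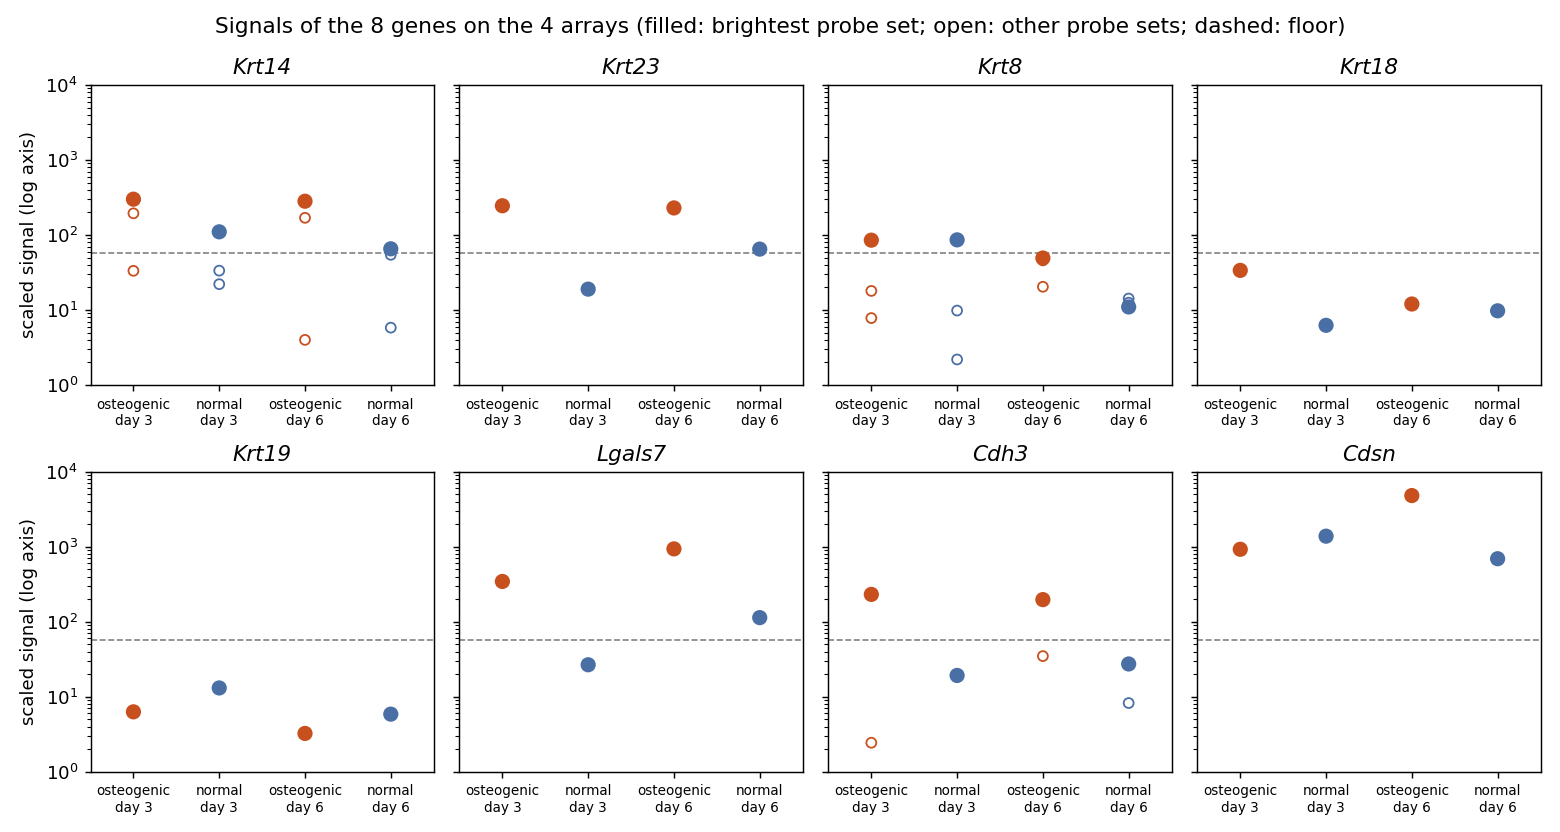
Scaled signal (log axis) of each of the 8 genes on the 4 arrays, osteogenic medium in orange and normal medium in blue, with 1 point per probe set and array. Filled points are the brightest probe set of the gene, open points its other probe sets, and the dashed line is the floor of 57.8. Krt14, Krt23, Lgals7 and Cdh3 lie higher on both osteogenic arrays, Cdsn on the osteogenic day 6 array, and Krt18 and Krt19 lie below the floor throughout.

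Cdh3 encodes P-cadherin, the adherens junction cadherin of basal epidermis, hair follicle and placenta. The signal was 231 in osteogenic and 19.2 in normal medium at day 3, and 197 in osteogenic and 27.4 in normal medium at day 6. Both normal arrays were below the floor and both osteogenic arrays well above it. The gene was therefore at least 4.0-fold higher at day 3 and at least 3.41-fold higher at day 6. Its other probe set was below the floor on all arrays, between 2.44 and 34.8, so the difference rests on 1 probe set. With the log2 values of both probe sets averaged, the difference was 1.0 at day 3 and 0.88 at day 6.

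Lgals7 encodes galectin-7, a beta-galactoside-binding lectin of stratified epithelia. It had a signal of 344 in osteogenic and 26.7 in normal medium at day 3, and 936 in osteogenic and 113 in normal medium at day 6. The normal day 3 array was below the floor, and the osteogenic array was the higher of each pair. The fold was at least 5.95 at day 3 and 8.25 at day 6. Among the 10639 genes above the floor on both day 6 arrays, Lgals7 had the 10th highest ratio of osteogenic to normal medium.

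Cdsn encodes corneodesmosin, a glycoprotein that glues cells of the outermost epidermis at modified desmosomes. Its only probe set had 924 in osteogenic and 1382 in normal medium at day 3, and 4806 in osteogenic and 692 in normal medium at day 6. All arrays were thus above the floor, and the osteogenic array was the lower of the pair at day 3 and the higher at day 6. The log2 difference was 2.80 at day 6, 6.95-fold, and -0.58 at day 3, short of 2-fold. At day 6 it had the 19th highest ratio of the 10639 genes. The medium difference was thus 3.38 higher at day 6 than at day 3 on the log2 scale. Cdsn alone of the 8 genes passed 2-fold in this change between days, where 4.42% of 12504 genes did so upwards and 3% downwards. It is the difference between days in osteogenic medium, 2.38, less that in normal medium, -0.998.

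**Figure D2:**
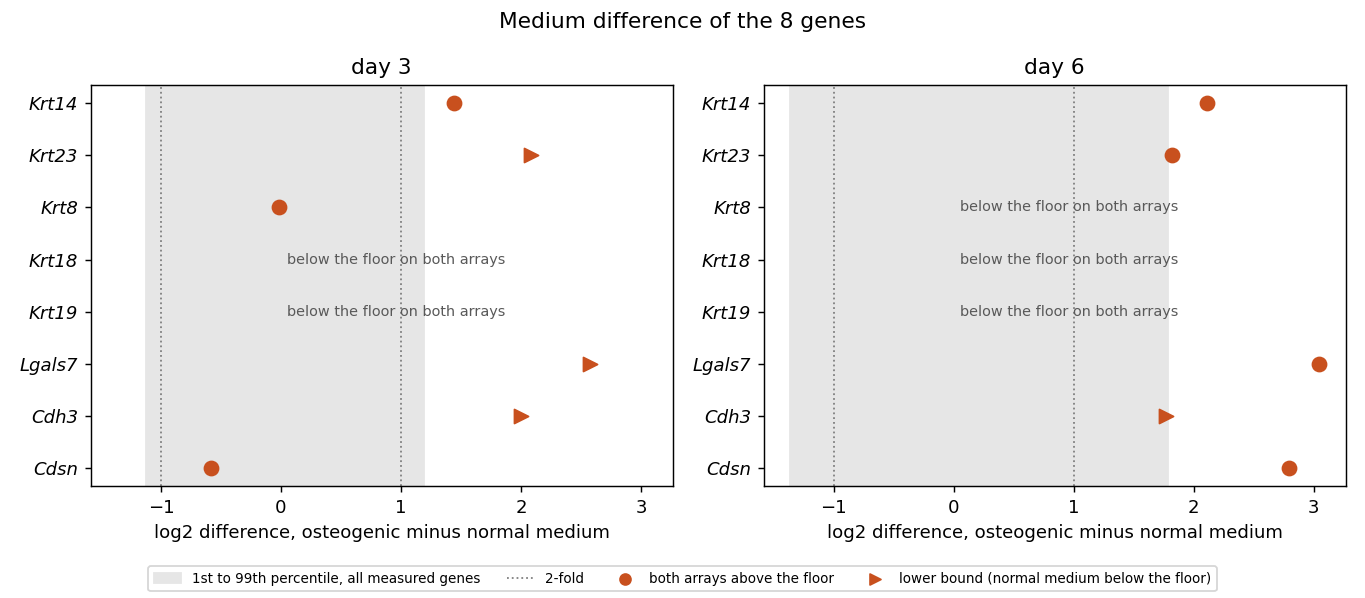
Log2 difference in signal, osteogenic minus normal medium, of the 8 genes at day 3 (left) and day 6 (right). Triangles are lower bounds where normal medium was below the floor, dotted lines mark 2-fold, and the shaded band holds the 1st to 99th percentile of all measured genes. Krt14, Krt23, Cdh3 and Lgals7 lie right of the 2-fold line at both days, and Cdsn lies at 2.80 at day 6 and at -0.58 at day 3.

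Over time the genes divided differently. In osteogenic medium Cdsn had 4806 at day 6 and 924 at day 3, 5.2-fold higher at day 6, and Lgals7 had 936 and 344, 2.72-fold higher at day 6. Krt14, Krt23 and Cdh3 were alike at the 2 times, with log2 differences of day 6 minus day 3 of -0.090, -0.097 and -0.23. Lgals7 and Cdsn are 2 of 6 measured, beside 3.7% of all measured genes higher and 2.62% lower at day 6 in this medium. In normal medium 0 of 5 measured genes passed 2-fold in either direction, beside 0.741% of all measured genes in each direction. Just short of it were Cdsn, with 692 at day 6 and 1382 at day 3 (log2 -0.998), and Lgals7, with 113 at day 6 and a signal below the floor at day 3 (at least 0.97). The comparisons between media and between days share arrays, so they are not independent of each other.

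Keratins other than these 5 were mostly below the floor on all arrays. With the 5 left out, 20 type I keratin genes had a probe set of their own, of which 6 were above the floor on at least 1 array, and 22 type II genes, of which 9 were. Krt12, the type I keratin of the corneal epithelium, had 166 in osteogenic and 48.5 in normal medium at day 3, and 264 in osteogenic and 58.9 in normal medium at day 6. It was the sole further keratin past 2-fold, with log2 differences of at least 1.52 and 2.16, and its other probe set gave at least 1.78 and 1.74. Krt10, a keratin of the suprabasal epidermis, was above the floor on all arrays with differences of 0.44 and 0.34. No type II keratin was higher or lower at either day, but most were too dim to pass 2-fold. Of those measured, only Krt81 was bright enough at day 3, and only Krt81 and Krt88 at day 6. Krt5, the type II partner of Krt14, was below the floor on all 4 arrays, between 2.89 and 44.5. In the list of all other keratins, 1 of 12 measured genes was higher and 0 lower at day 3, and 1 of 11 higher and 0 lower at day 6. The list medians were 0.041 and 0.12, beside 0.0092 and 0.013 over all measured genes. Of all measured genes 1.99% were higher and 1.58% lower at day 3, and 4.18% and 2.78% at day 6. These shares are also the background of the lists that follow.

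**Figure D3:**
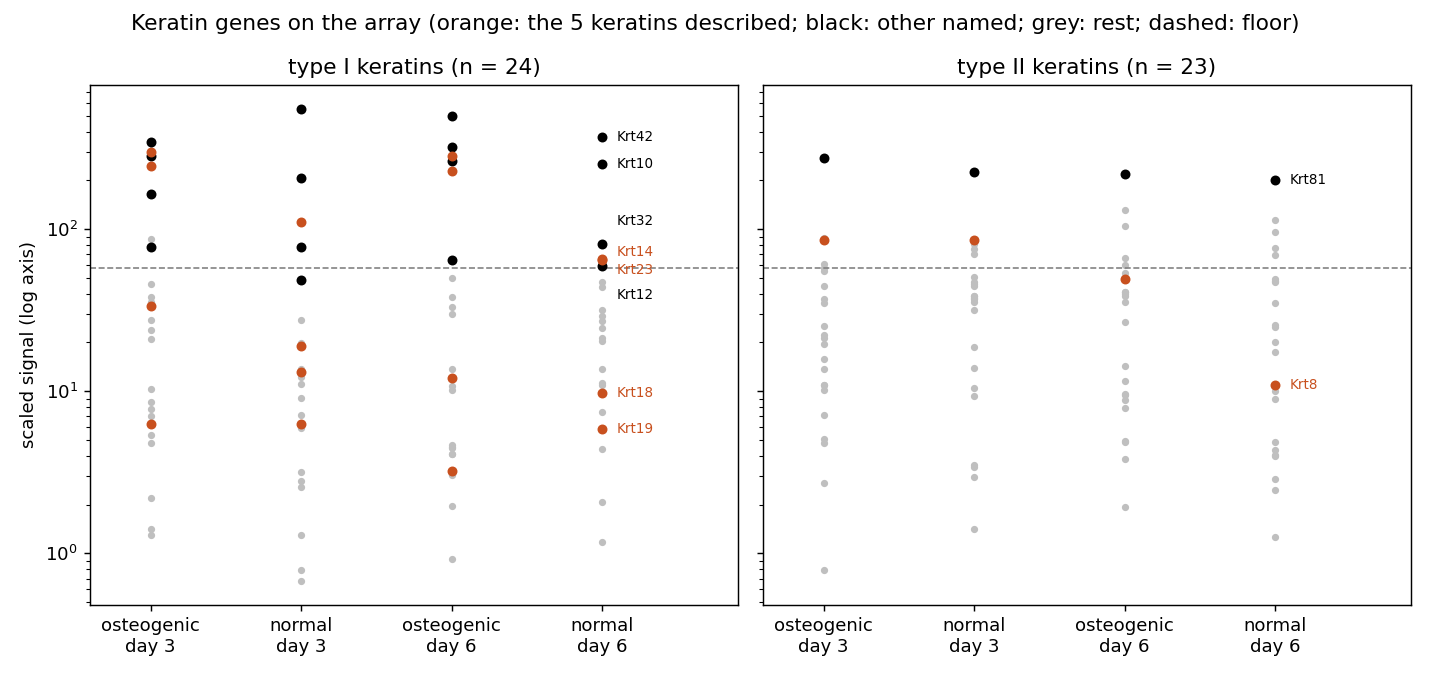
Scaled signal (log axis) of the type I (left) and type II (right) keratin genes with a probe set of their own on the 4 arrays, with the floor dashed. Orange points are Krt14, Krt23, Krt18 and Krt19 (left) and Krt8 (right), black points are Krt12 and the keratins above the floor on all arrays, and grey points are the rest. Signals of different probe sets are not on a common scale of RNA amount, so positions compare arrays within a gene.

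Markers of epithelial identity were mostly below the floor. Of 33 such genes, 20 were below it on all 4 arrays, among them the tight junction genes Cldn3, Cldn4 and Cldn7 and the epithelial splicing regulators Esrp1 and Esrp2. Summed over the 33 genes, the signal was 1851 in osteogenic and 2109 in normal medium at day 3, and 2081 in osteogenic and 1938 in normal medium at day 6. At day 3, 1 of 11 measured genes was higher and 0 lower, with a median of -0.12, and at day 6, 1 of 12 was higher and 2 lower, with a median of 0.097. Several of the measured genes, among them Ocln, Grhl2 and Llgl2, were too dim to pass 2-fold at either day. The higher gene was Cdh1, which encodes E-cadherin. It had 222.5 in osteogenic and 73.0 in normal medium at day 3, and 506 in osteogenic and 88.9 in normal medium at day 6, log2 differences of 1.61 and 2.51. The lower genes at day 6 were Cldn1 (-1.24), a claudin of the epidermis, and Ehf (-2.08 or below, with the osteogenic array under the floor), an epithelial transcription factor of the ETS family, whose other probe sets above the floor gave -0.96 and -1.36. Epcam, a defining surface protein of epithelial cells, had 1 probe set between 99.5 and 169, of the type able to bind other transcripts, and 1 between 2.61 and 5.05. The brighter gave log2 differences of 0.71 at day 6 and -0.66 at day 3. Epcam is named after its values were seen. The part of any epithelial cells in the differences of the 8 genes was not tested, and in RNA from whole cultures fewer cells of a type and less RNA per cell cannot be told apart.

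Genes of basal keratinocytes overlap with those of other adherent cells. Of 12 on the array 4 were below the floor on all arrays, namely Krt5, Krt15, Lama3 and Bnc1, and the summed signal was 14398 in osteogenic and 15724 in normal medium at day 3, and 14510 in osteogenic and 14560 in normal medium at day 6. None of 6 measured passed 2-fold at day 3 (median 0.35), and 1 of 7 was higher at day 6 (median 0.27), Itgb4, a hemidesmosome integrin, by at least 1.10 on the log2 scale. Of all measured genes 4.18% were higher at day 6. Trp63, which encodes the p63 transcription factor of stratified epithelia, had 2454 in osteogenic and 1844 in normal medium at day 3, and 2115 in osteogenic and 1924 in normal medium at day 6. These differences of 0.41 and 0.14 did not reach 2-fold, and 3 of its 4 probe sets were above the floor on all arrays. Trp63 too is named after its values were seen.

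Genes of the cornified envelope, the cross-linked protein shell of dead keratinocytes, stayed mostly below the floor. Of 30 on the array 18 were below it on all arrays, including the envelope proteins Ivl and Flg, and the summed signal was 982 in osteogenic and 1301 in normal medium at day 3, and 1302 in osteogenic and 1040 in normal medium at day 6. Of the measured genes 0 of 9 passed 2-fold at day 3 (median -0.29) and 1 of 7 was higher at day 6 (median 0.36), Aloxe3, a lipoxygenase of the skin barrier, by at least 1.21. Most of the measured genes were too dim to pass 2-fold. Only Casp14 and Sbsn were bright enough at day 3, and only these and Aloxe3 at day 6. Among 13 desmosome genes 8 were below the floor on all arrays, among them Dsp, which encodes desmoplakin. None of 5 measured passed 2-fold at day 3 (median -0.31), where Dsg2 and Dsc3 were too dim to do so. At day 6, 1 of 3 was higher (median 0.36), Jup, which encodes plakoglobin, by 1.10.

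Among relatives of Cdh3 and Lgals7, Cdh1 and Lgals3 passed 2-fold, beside 1.99% of all measured genes higher at day 3 and 4.18% at day 6. Among 20 other cadherin genes, Cdh1 was the one past 2-fold at each day, of 10 measured at day 3 and 8 at day 6, with list medians of -0.32 and -0.13. At day 3, 8 of the 10 had a difference below 0. The mesenchymal cadherins were Cdh2, N-cadherin, with differences of -0.69 and -0.37, and Cdh11 with -0.083 and -0.036. Of 8 other genes named for galectins, 1 of them encoding a galectin-binding protein, 7 were measured at each day, with medians of -0.13 and 0.059. At day 6 Lgals8 had 0.63, Lgals9 -0.55 and Lgals2 -0.62. Lgals3, a galectin of many cell types, was the sole one past 2-fold, at day 6, with 18554 in osteogenic and 5204 in normal medium, 1.83 on the log2 scale. Lgals3 had 6838 in osteogenic and 5480 in normal medium at day 3, a difference of 0.32.

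Transcription factors with a role in the epidermis moved in both directions. At day 3, 1 of 11 measured was higher, Dlx3 (1.46), which also acts in osteoblasts, and 1 was lower, Hopx (-1.02). At day 6, 4 of 12 were higher, namely Gata3 (1.69), Dlx3 (1.54), Cebpb (1.28) and Klf4 (1.08), and 2 were lower, Hopx (-1.90) and Tfap2b (-1.06). The medians were 0.14 and 0.30. A second probe set fell short of 2-fold for Dlx3 at day 3 (0.74) and for Tfap2b at day 6 (-0.69). Of 7 transcription factors that repress epithelial genes or mark mesenchyme, 6 were measured at day 3 and 7 at day 6. Of those measured, 0 passed 2-fold at either day, with medians of 0.042 and -0.13, and Twist2 was too dim to do so. Among 13 other intermediate filament genes, Nes (1.88) and Des (at least 1.5) were higher at day 6 and Synm (-1.65) was lower at day 3, with medians of 0.0092 and -0.17. A second Nes probe set, above the floor on all arrays, had 182 in osteogenic and 135 in normal medium at day 6, a difference of 0.43 that does not reach 2-fold. The other Des probe set was below the floor on all arrays, between 5.18 and 48.1. Vim, which encodes vimentin, had signals of 56838 in osteogenic and 67318 in normal medium at day 3, and 55883 in osteogenic and 55112 in normal medium at day 6.

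Keratin-associated protein genes, whose products fill the hair shaft, were below the floor on all arrays for 30 of 38. At day 3 Krtap1-5 (1.08) and Krtap3-1 (at least 1.03) were higher and Krtap12-1 (-2.43) and Krtap10-4 (-1.28) lower, of 7 measured, with a median of -0.11. At day 6, 0 of 6 were higher and 1 lower, Krtap12-1 (-1.14), with a median of 0.23. The other Krtap12-1 probe set was below the floor on all arrays, between 21.6 and 45.0.

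**Figure D4:**
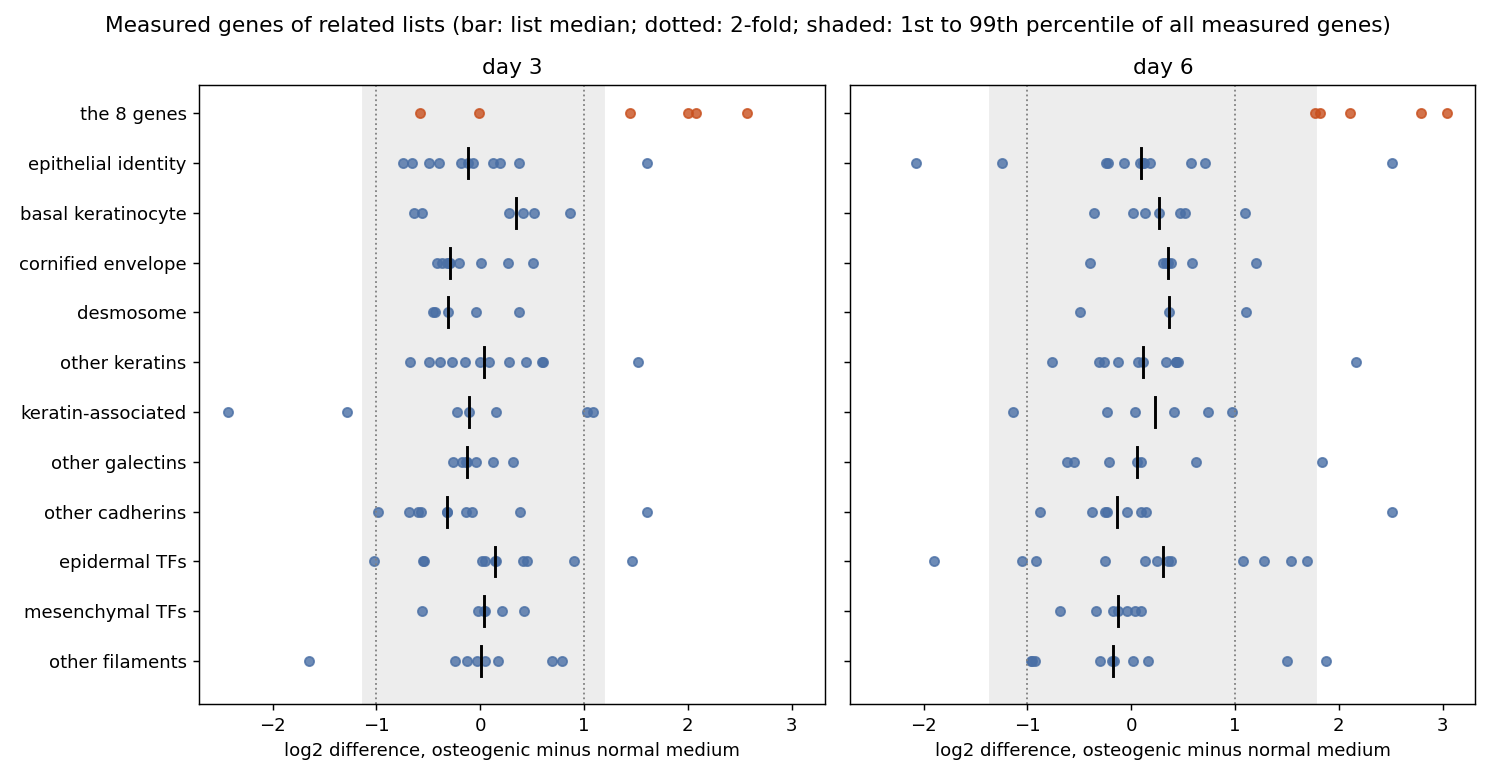
Log2 difference in signal, osteogenic minus normal medium, of the measured genes of 11 related lists (blue) and of the 8 genes (orange) at day 3 (left) and day 6 (right), with genes that have a bound drawn at it. Black bars are list medians, dotted lines mark 2-fold, and the shaded band holds the 1st to 99th percentile of all measured genes. Apart from Cdh1, Krt12, Lgals3 and Nes, the related genes do not pass the upper edge of the band at day 6.

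Osteoblast markers with a probe set of their own were above the floor, and markers of other cell types were in part. Of 8 osteoblast genes listed, 5 had such a probe set, and Bglap, Runx2 and Spp1 did not. All 5 were above the floor on every array. Ibsp (3.53 and 5.44), Dmp1 (2.59 and 2.97) and Alpl (1.55 and 1.70) were higher in osteogenic medium at day 3 and day 6. Sp7 (0.69 and 0.38) and Col1a1 (-0.21 and 0.026) did not pass 2-fold. The list medians were 1.55 and 1.70. Their summed signal, most of it from Col1a1, was 61451 in osteogenic and 62638 in normal medium at day 3. At day 6 it was 69996 in osteogenic and 51818 in normal medium. The summed signal of 6 leukocyte genes was 696 in osteogenic and 833 in normal medium at day 3, and 770 in osteogenic and 998 in normal medium at day 6, with Ptprc, Cd68 and Adgre1 below the floor on all arrays and Cd14, Csf1r and Lyz2 above it on all. Cd14 was between 144 and 229.9, Csf1r between 169 and 242 and Lyz2 between 223 and 526. Of the 3 leukocyte genes measured 1 was lower at day 6, Lyz2 (-1.24), with list medians of -0.063 and -0.11. Of 6 endothelial genes 5 were below the floor throughout, with summed signals of 102 to 215, and 1 was measured at day 3, at 0.45. Of 5 mesothelial genes 4 were below it throughout, with summed signals of 115 to 136 and medians of -0.34 and 0.10 over the 1 gene measured.

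The genes with profiles over the 4 arrays most like the 2 widest-ranging of the 8 were named by Euclidean distance between mean-centred log2 signals, among 12504 genes. Nearest to Lgals7 were Sostdc1, a secreted BMP antagonist (distance 0.55), Sstr2, a somatostatin receptor (0.56), and Il33, a cytokine of the interleukin-1 family (0.71). Sostdc1 had 564 in osteogenic and 98.4 in normal medium at day 3, and 984 in osteogenic and 157 in normal medium at day 6. Nearest to Cdsn were Tmem151a, a transmembrane protein gene (0.53), Cst6, which encodes the cysteine protease inhibitor cystatin E/M (0.55), and Spns2, a sphingosine-1-phosphate transporter (0.57). Cst6 had 67.3 in osteogenic and 76.1 in normal medium at day 3, and 255 in osteogenic and 46.9 in normal medium at day 6, the last below the floor. With 4 arrays many genes can share a profile, and no more is drawn from it.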

How the data were processed

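The 4 arrays were 1 per group, a number that limits the precision of all values. Per the labels, biotin-labelled cRNA was made from total RNA with a 3′ in vitro transcription kit. The table that the authors deposited holds a linear intensity for each probe set on each array, and each array's mean was 500.0 without its lowest and highest 2% of probe sets, so the arrays had been scaled before deposit. The software and the probe summary method are not named in those sources.

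Symbols were taken from GEO's platform annotation. Of 45101 probe sets, 64 were controls, 34945 had 1 symbol, 932 several and 9160 none. By Entrez ID 34754 matched RefSeq, with 0 symbols that differed, and all 8 members matched. Arrays were brought to the same 75th percentile, by factors of 0.988 to 1.02, values below the pooled 50th percentile were set to that floor, and log2 was taken. A gene was its probe set of highest mean signal, and was measured where above the floor on at least 1 of the 2 arrays. Genes past an absolute log2 difference of 1 were called. The probe error is the SD of the difference between the log2 differences of a gene's 2 brightest probe sets, divided by the square root of 2, for genes whose brighter array lay between 2 and 8 times the floor. No p-value was computed, since groups had 1 array and the members were chosen on these arrays.

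Members, gene lists and tests were chosen with earlier results of these data known, and the share of genes past 2-fold in the signal band was added after the values were seen. The text names all members, up to 6 genes per list past 2-fold between media, and the 3 genes most like each of the 2 members of widest range, leaving out clone names. Other genes named, below the floor or short of 2-fold, and the chromosomal neighbours were chosen after their values were seen. No genome build is named in the files, so promoter coordinates are RefSeq's. Protein sequences and the promoters of Krt19 and Cdh3 are not shown. The steps were tested on simulated arrays with known folds. The 9 alternatives covered scaling, floor, probe sets and filter. Python 3.11.15, numpy 2.4.6, pandas 2.3.3 and matplotlib 3.10.9 were used.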

Additional observations from a re-analysis of the deposited data

Results flagged for a closer look

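Of 86 genes checked, the members and all list genes measured at both days, 8 were flagged. Their medium differences pointed in opposite directions at day 6 and day 3, each by more than the probe error over all genes. That error, without the limit on signal range, was 0.32 (SD) at day 3 and 0.33 at day 6. It is smaller than the 0.40 and 0.42 given above, and the Cdh26 difference at day 3 (0.39) lies below that 0.40. With 1 array per group the change between days was not tested. Cdsn had the widest, with a log2 difference of 2.80 at day 6 and -0.58 at day 3, a change of 3.38. Krtap10-4 had 0.97 at day 6 and -1.28 at day 3, a change of 2.26. Aloxe3 had at least 1.21 at day 6 and -0.42 at day 3, a change of 1.62. Jup had 1.10 at day 6 and -0.45 at day 3, a change of 1.56. Epcam had 0.71 at day 6 and -0.66 at day 3, a change of 1.37, from a probe set able to bind other transcripts. The keratin genes Krt42, with 0.43 and -0.68, and Krt88, with 0.44 and -0.49 or below, changed by 1.11 and 0.93. The Krt42 probe set is also of the type able to bind other transcripts. The cadherin gene Cdh26 had -0.87 at day 6 and 0.39 at day 3, a change of -1.26. All 8 changes use the osteogenic day 6 array, which stood apart in its 18S ribosomal RNA control.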

How the results depend on the processing

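No paired analysis was run, because each group had 1 array. A fit of medium with day as a block, which leaves 1 residual degree of freedom, was not run, since the members were chosen on these arrays. No called difference of a member or named gene changed sign under any of the 9 alternatives in which it had a value. Of 126 counts under the alternatives 101 stayed within 1.5 times the count reported, and 25 did not. With the floor at the 60th percentile 3 members were higher at day 6 (Lgals7, Krt14 and Cdsn), with Krt23 at 0.94 and Cdh3 at 0.72, 2 had a larger medium difference at day 6, and 5 list genes were higher at day 3, against 8. With both arrays required above the floor, 1 member, Krt14, was higher at day 3. Between days in normal medium, 1 member was higher with a common median, 1 higher and 1 lower with the floor at the 40th percentile, 2 higher and 1 lower with the pseudocount of 16, and 2 and 2 with neither floor nor filter. The change between days was past 2-fold upwards in 2 members and downwards in 1 with the pseudocount, and in 2 and 2 with neither floor nor filter, where 1 member was also lower at day 3 (Krt19) and 1 at day 6 than day 3 in osteogenic medium (Krt18). List genes lower at day 3 numbered 4, against 14 with the pseudocount and 11 with the lower floor, and those lower at day 6 numbered 6, against 10 with the pseudocount and 3 with averaged probe sets. With neither floor nor filter, 48 were higher and 55 lower at day 3 and 70 higher and 58 lower at day 6. Lgals7 at day 3 ranged from 1.52 to 3.69, Krt23 from 1.04 to 3.69, Cdh3 from 0.95 to 3.59 and Krt14 from 1.06 to 1.48. At day 6 Lgals7 ranged from 2.88 to 3.05, Cdsn from 2.75 to 2.80, Krt14 from 1.22 to 2.11, Krt23 from 0.94 to 1.82 and Cdh3 from 0.72 to 2.85. The change of the Lgals7 difference between days, 0.47 and not past 2-fold, ranged from -0.64 to 1.44. How far the dim normal-medium signals lie under the floor limits the folds of Lgals7, Krt23 and Cdh3.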

Other observations

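Genes next to the members in RefSeq's gene order did not share a single pattern. Beside Cdh3 lie Smpd3, which encodes a sphingomyelinase of bone and cartilage, and Cdh1, with Zfp90 between Smpd3 and Cdh3. Smpd3 had signals of 430 in osteogenic and 149 in normal medium at day 3, and 280 in osteogenic and 79.1 in normal medium at day 6, log2 differences of 1.53 and 1.83. Cdh1 had 1.61 and 2.51, while Zfp90 had -0.038 and -0.11. Around Lgals7, its nearest galectin Lgals4 was below the floor on all arrays, and Ech1 (0.058 and -0.32) and Actn4 (-0.090 and -0.15) did not pass 2-fold. Beside Cdsn, Psors1c2 was below the floor on all arrays and Tcf19 was lower at day 6 (-1.35). Around Krt14, Krt19, Krt15, Krt16 and Krt17 were below the floor on all arrays. Of 36 genes on the array within the type I keratin cluster of chromosome 11, from Krt24 to Krt42, 10 were measured at day 3, of which 5 were higher (Krt12, Krt23, Krtap3-1, Krtap1-5 and Krt14) and 0 lower, and 9 at day 6, of which 3 were higher and 0 lower. Krt23 and Krt14 are among them by choice. Without the members, 3 of 8 were higher at day 3 and 1 of 7 at day 6, beside 1.99% and 4.18% of all measured genes, and the cluster was looked at after the values were seen.

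The probe set annotated to Krt17 and Krt14 together had 40.4 in osteogenic and 68.6 in normal medium at day 3, and 47.6 in osteogenic and 6.38 in normal medium at day 6, so it was above the floor on the normal day 3 array alone and unlike the brighter Krt14 probe sets.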
